A study of Bombyx mori with 9 samples.

Results

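Translation factors are the soluble proteins that drive the ribosome. Initiation factors load messenger RNA and the first transfer RNA onto the small ribosomal subunit, and elongation factors bring each further aminoacyl-tRNA and then move the ribosome along. The silk gland of the last larval instar is a secretory organ known for very high protein synthesis, because it makes the proteins of the cocoon thread. The genes described here are those of the silkworm, Bombyx mori, whose deposited name is TEF2 or whose deposited description contains "elongation factor" or "initiation factor", without those of transcription. Of 14623 genes with BGIBMGA identifiers 26 matched these words, and the 20 with at least 1 FPKM in 3 of 9 libraries are the members: 5 elongation factor genes and 15 initiation factor genes. FPKM are fragments scaled by transcript length and by the number of mapped fragments, so levels of different genes can be set side by side. Only 555 of the 4612 BGIBMGA genes tested carry a description, so genes of this family without one are not among the members. The members were chosen by name, description and level, without a measured difference between strains as a criterion, but with earlier results of these data known.

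RNA came from silk glands of 3 pure strains, A306, A798 and XH, reared alike and sampled on day 5 of instar 5, with 3 libraries for each strain. The submitters chose the strains for their gland weights, in a search for genes of gland development. Glands were lightest in A306, with 0.688 ± 0.0207 g as the mean of the 2 weights stated for each sample, followed by XH with 0.974 ± 0.00850 g and A798 with 1.28 ± 0.0309 g (SD, n = 3). The sex of the larvae and the part of the gland are not stated. The 2 weights stated differ from library to library, but the labels do not say that the libraries are of different larvae. Each p-value sets a difference against the spread of these libraries, which may be in part technical. In such bulk samples fewer cells of a type and less RNA per cell cannot be told apart.

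Some facts of the whole data set bear on every value below. Summed FPKM ran from 502510 to 587872 per library, and ribosomal RNA models took between 5.05% and 11.3% of the sum in 8 libraries and 19.6% in A798 replicate 3. Over the 4636 features tested, the median log2 change was 0.31 for A306 against A798, 0.19 for XH against A798 and 0.12 for A306 against XH, so a gene at these values moved like the typical gene. The silk gland markers fibroin light chain (FIBL) and fibrohexamerin (P25) were at 20106 ± 600 and 3862 ± 156 FPKM even in A798, where both were lowest. Of the 5 silk gland markers tested, A306 had 2 called higher and 1 lower than A798, and XH had 3 higher and 1 lower, while under TMM scaling all 5 were lower in A306 and 3 were higher and 2 lower in XH. Of all features, 37.9% were called higher and 9.6% lower in A306 against A798, and 25.7% and 8.02% in XH against A798. In A306 against XH these shares were 23.1% and 13.4%. Under TMM scaling the shares against A798 were 15.7% and 17.9% in A306 and 13.5% and 14.2% in XH. Markers of other tissues differed between strains. The summed FPKM of 19 fat body and haemolymph genes was 70.9 to 77.3 in the A306 libraries, 622 to 641 in those of A798 and 1800 to 1883 in those of XH; of the 13 tested, 11 were lower in A306 and 13 higher in XH than in A798. For 178 genes with cuticle descriptions, 93 of them listed at 0 throughout, the sum was 12113 to 13470 FPKM (A306), 3482 to 3640 (A798) and 4280 to 4736 (XH). A cuticle protein gene, CPH43, carried this sum, at 12461 ± 721, 3180 ± 78.1 and 3681 ± 241 FPKM. Of the 25 cuticle genes tested, A306 had 8 higher and 5 lower than A798 (median log2 change 0.14), XH had 16 higher and 1 lower than A798 (0.89), and A306 had 3 higher and 11 lower than XH (-0.84). The 5 muscle genes summed to 72.1 to 81.7, 38.5 to 44.0 and 68.7 to 72.7 FPKM, and the 5 haemocyte genes to 48.4 to 51.0, 33.3 to 40.8 and 36.3 to 41.5 FPKM, in the same order of strains. Actin A1 carried the muscle sum (means of 72.9, 38.2 and 62.0 FPKM), while MLC-2 was highest in XH (0.677, 0.243 and 3.41). A galectin gene carried the haemocyte sum (46.4, 34.2 and 32.2), while PPO1 was highest in XH (2.44, 1.38 and 3.01). In each list, 1 of 3 genes tested was called higher and 1 lower in A306 against XH. The part of such tissue in the results below was not tested.

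TEF2 (BGIBMGA004165), described as translation elongation factor 2, showed the largest change of any elongation factor gene that was called. Its product is the GTPase that moves the ribosome by a codon after each peptide bond. The A306 libraries were at 443, 326 and 371 FPKM, the XH libraries at 835, 763 and 938 FPKM, and the A798 libraries at 1388, 1513 and 1157 FPKM. The 3 strains did not overlap, and the order of their levels, A306 below XH below A798, was that of their gland weights. TEF2 stood at 28.1% of the A798 mean in A306 (380 ± 59.0 and 1353 ± 181 FPKM, SD, n = 3), a log2 change of -1.83 with an SE of 0.139 (adjusted p = 2.44e-05 by limma). In XH it stood at 62.5% of the A798 mean (845 ± 87.7 FPKM; log2 change -0.67 ± 0.139 SE, adjusted p = 0.00717). The direct comparison of A306 with XH, which is also the test of the difference between the first 2 comparisons, gave a log2 change of -1.16 ± 0.139 SE (adjusted p = 0.000359).

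TEF2 was also among the more variable members within a strain. Its coefficient of variation was 15.5% in A306, 13.4% in A798 and 10.4% in XH, while those of EF-1G were 1.12%, 2.13% and 1.39%. The difference between strains was larger than this spread under all 20 alternatives, in which the log2 change of A306 against A798 ran from -2.23 to -1.73 and that of XH against A798 from -0.91 to -0.59. Counted from the most negative of the 4636 fitted changes, TEF2 ranked 128 for A306 against A798 and 335 for XH against A798. How well the TEF2 gene model matches the sequence of each strain was not tested.

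The elongation factor 1 complex consists of the alpha subunit, which carries aminoacyl-tRNA to the ribosome, and of beta, delta and gamma subunits, which recharge alpha with GTP or hold the exchange subunits together. EF-1G (gamma, BGIBMGA008302) was the most abundant member. Its libraries were at 4085, 4104 and 4173 FPKM in A306, at 4124, 4076 and 4190 FPKM in XH and at 4706, 4888 and 4719 FPKM in A798. All A306 and XH libraries lay below all A798 libraries, and A306 and XH overlapped. The log2 change was -0.21 ± 0.0234 SE for A306 (adjusted p = 0.000196) and -0.21 ± 0.0234 SE for XH (adjusted p = 0.000344), which relative to the median of all features was -0.52 and -0.40. Between A306 and XH the log2 change was -0.00 (95% interval -0.06 to 0.05, adjusted p = 0.934). That comparison was called lower in A306 under TMM scaling (trimmed mean of log ratios), median centring and an equal sum over BGIBMGA genes, at log2 changes of -0.16, -0.09 and -0.12 (adjusted p = 0.00241, 0.0313 and 0.00885; the range across alternatives was 0.00241 to 1).

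EF1BETA (beta', BGIBMGA008921), an exchange subunit, separated the 2 lighter-gland strains. It was at 1802, 1745 and 1698 FPKM in A306, at 2178, 2204 and 2317 FPKM in XH and at 2063, 2042 and 2028 FPKM in A798. No strain overlapped another, with A306 lowest and XH highest. EF1BETA fell in A306 against A798 (log2 change -0.23 ± 0.0324 SE, adjusted p = 0.000762) and in A306 against XH (-0.35 ± 0.0324 SE, adjusted p = 7.83e-05), under all 20 alternatives. The rise in XH against A798 (0.13 ± 0.0324 SE, adjusted p = 0.0185) was smaller than the median change of all features and turned to -0.11 under TMM scaling and median centring, where it was called lower (adjusted p = 0.0173 and 0.011; across alternatives 0.011 to 0.156). The call was also lost without A798 replicate 3 and without XH replicate 3 (adjusted p = 0.0547 and 0.0567) and under quantile normalization, equal BGIBMGA sums and a fit with no variance trend (adjusted p = 0.126, 0.0522 and 0.156).

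EF-1D (delta, BGIBMGA003475), the other exchange subunit, was far less abundant, at 174, 150 and 142 FPKM in A306, 157, 150 and 126 FPKM in XH and 123, 129 and 128 FPKM in A798. The A306 libraries lay above those of A798, and XH overlapped both. The log2 change of A306 against A798 was 0.28 ± 0.0973 SE (adjusted p = 0.0431), a call that held in 8 of 20 alternatives and was lost when A306 replicate 1 or 2, any A798 library or XH replicate 2 was left out (adjusted p = 0.0574 to 0.126). Its sign changed with TMM scaling (-0.11), with median centring (-0.04) and with quantile normalization (-0.03). In XH against A798 EF-1D did not pass the test (0.18, adjusted p = 0.204).

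**Figure D1:**
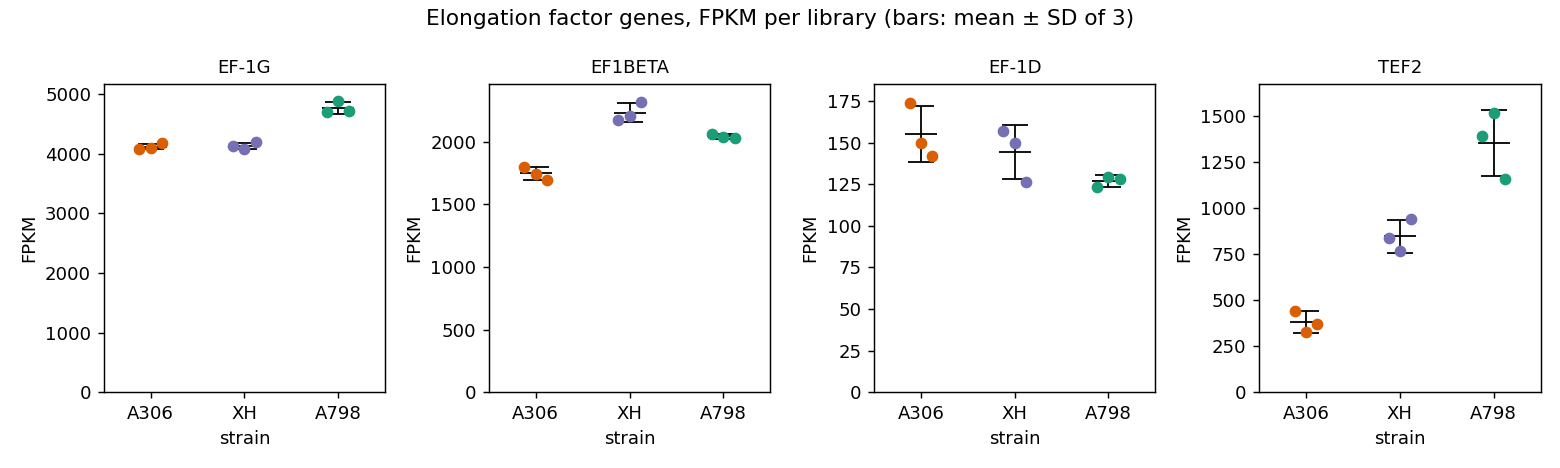
FPKM (vertical axis, from 0) of EF-1G, EF1BETA, EF-1D and TEF2 in each of 9 libraries, by strain; points are libraries and bars the mean ± SD of 3. TEF2 rises from 380 FPKM in A306 through 845 in XH to 1353 in A798 without overlap, EF-1G is highest in A798, and EF1BETA is lowest in A306 and highest in XH.

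Ratios between genes of the same library are unchanged by any factor common to that library, and show the shift within the group directly. TEF2 FPKM as a percentage of EF-1G FPKM was 10.8, 7.94 and 8.88 in the A306 libraries, 20.2, 18.7 and 22.4 in XH and 29.5, 31.0 and 24.5 in A798. The 3 strains did not overlap in this ratio, which was not planned and was chosen after its values were seen. EF1BETA as a percentage of EF-1G was 42.4 ± 1.72 in A306 and 42.9 ± 1.03 in A798, with overlapping libraries, and 54.1 ± 1.24 in XH, where all libraries lay above those of the other strains. EF-1D as a percentage of EF-1G was 3.77 ± 0.442 in A306, 3.50 ± 0.424 in XH and 2.66 ± 0.0519 in A798, where all libraries lay below those of the others. Both EF1BETA and EF-1G were lower in A306 than in A798, and their ratio overlapped between these strains.

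Both gene models described as elongation factor 1-alpha were at or near 0. EF-1A (BGIBMGA003608) was listed at 0 in all 9 libraries, and BMO.4342 (BGIBMGA007516) reached 0.05 FPKM. Every cell uses elongation factor 1-alpha, so a value of 0 here can be a failed estimate, and nothing is said of the level of this subunit in any strain. BGIBMGA006749, described as elongation factor Tu, which in animals serves mitochondrial protein synthesis, was listed at 7.42, 3.46 and 0 FPKM in A306, at 0, 2.14 and 0 in XH and at 0 in all A798 libraries. It just entered the list, with 3 libraries of at least 1 FPKM, and did not pass the test against A798 in either strain (adjusted p = 0.0976 and 0.631). Without A306 replicate 3 it was called higher in A306 than in A798 and than in XH (adjusted p = 0.00815 and 0.026).

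Among initiation factors, the steps that select the start codon come first. BGIBMGA001437 encodes eukaryotic initiation factor 2 subunit 2, the beta subunit of the GTP-binding factor that carries the initiator transfer RNA to the small ribosomal subunit. It was at 122, 115 and 116 FPKM in A306, at 111, 112 and 112 FPKM in XH and at 73.8, 72.1 and 67.4 FPKM in A798. A798 stood clearly below the other strains. The gene rose 1.66-fold in A306 (log2 change 0.72 ± 0.0450 SE, adjusted p = 8.67e-06) and 1.57-fold in XH (0.65 ± 0.0450 SE, adjusted p = 2.44e-05), in both cases under all 20 alternatives. Between A306 and XH the log2 change of 0.07 did not pass the test (adjusted p = 0.249).

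BGIBMGA006840 encodes initiation factor 1A, which helps the scanning small subunit settle on the start codon. It was at 200, 181 and 197 FPKM in A306, at 156, 151 and 155 FPKM in XH and at 135, 138 and 145 FPKM in A798. The strains did not overlap, with A306 highest. It rose in A306 against A798 (0.46 ± 0.0478 SE, adjusted p = 0.000136) and against XH (0.32 ± 0.0478 SE, adjusted p = 0.00126). The first of these calls was lost under TMM scaling and median centring (log2 changes of 0.07 and 0.14), and the second under TMM scaling (0.16). The rise in XH against A798 (0.14, adjusted p = 0.0496) held in 5 of 20 alternatives: it was lost without A306 replicate 1 or 3, without A798 replicate 1 or 2 and without each XH library (adjusted p = 0.0542 to 0.137), and turned to -0.09 under TMM scaling and median centring and to -0.01 under quantile normalization.

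Initiation factor 3 is the large scaffold that binds the small subunit and recruits messenger RNA. Of its subunits 10 were members and 3 fell below the filter. Of the 10 members, 7 were called higher in A306 than in A798 and 7 higher in XH, and none lower, as deposited, while under TMM scaling 1 was higher and 4 were lower in A306 and 1 was higher in XH. Of all features, 37.9% (A306) and 25.7% (XH) were called higher as deposited, and under TMM scaling 15.7% were higher and 17.9% lower in A306 and 13.5% higher and 14.2% lower in XH. The median log2 change of the 10 was 0.28 for A306 and 0.25 for XH, beside 0.31 and 0.19 for all features tested. Most subunits therefore changed by about as much as the typical gene, and only subunit C in A306 and subunit M in XH were called higher in every alternative.

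EIF3C (subunit C, BGIBMGA012851), a core subunit of the scaffold, was at 113, 115 and 114 FPKM in A306, at 80.4, 83.6 and 86.3 FPKM in XH and at 68.0, 70.2 and 67.7 FPKM in A798. The 3 strains did not overlap, in the order opposite to that of TEF2, an order of means that 35.6% of all features had. EIF3C rose in A306 against A798 (0.72 ± 0.0392 SE, adjusted p = 4.22e-06) and against XH (0.44 ± 0.0392 SE, adjusted p = 6.44e-05) under all 20 alternatives. In XH against A798 the change of 0.28 (adjusted p = 0.00107) was lost with TMM scaling, with median centring and with quantile normalization, at 0.04, 0.04 and 0.07.

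EIF3-S9 (subunit B, BGIBMGA007114) is another subunit of the scaffold. It was at 408, 390 and 403 FPKM in A306, at 399, 415 and 420 FPKM in XH and at 359, 352 and 341 FPKM in A798, so that A306 and XH overlapped. EIF3C as a percentage of EIF3-S9 was 28.4 ± 0.884 in A306, 20.3 ± 0.225 in XH and 19.6 ± 0.558 in A798. All A306 libraries had a ratio above all others, and those of XH were slightly above those of A798. This ratio was chosen after its values were seen, so its separation is not further support for the EIF3C change. The log2 change of EIF3-S9 was 0.19 for A306 against A798 (adjusted p = 0.00253) and 0.23 for XH (adjusted p = 0.00142). Against A798 it turned to -0.20 in A306 under TMM scaling and -0.13 under median centring, where it was called lower (adjusted p = 0.00057 and 0.00789; across alternatives 0.00057 to 0.951). In XH it turned to -0.01 under both and was not called. The A306 call was also lost with quantile normalization (-0.09) and with equal BGIBMGA sums (0.00). It was also called lower in A306 than in XH under TMM scaling, median centring, quantile normalization and equal BGIBMGA sums, at -0.19, -0.13, -0.24 and -0.16 (adjusted p = 0.000708, 0.0104, 0.00546 and 0.00534; across alternatives 0.000708 to 0.72).

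BGIBMGA000903 (subunit M) was at between 96.9 and 99.6 FPKM in A306, at 97.8, 101 and 109 FPKM in XH and at 77.1, 71.3 and 73.7 FPKM in A798. A798 was below both other strains, which overlapped. The rise in XH (0.46 ± 0.0513 SE, adjusted p = 0.000311) held under all 20 alternatives, while that in A306 (0.41, adjusted p = 0.000389) was lost with TMM scaling, with median centring and with quantile normalization, at 0.02, 0.08 and 0.04. Against XH it was called lower in A306 under TMM scaling, quantile normalization and equal BGIBMGA sums, at -0.21, -0.25 and -0.17 (adjusted p = 0.0103, 0.00363 and 0.0253; across alternatives 0.00363 to 0.89).

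The remaining subunits were E, H, J and K, called higher in both strains against A798, and F, G and I. BGIBMGA006141 (subunit H) was the most abundant subunit, with libraries of A306 at 753 to 787 FPKM, of XH at 719 to 759 FPKM and of A798 at 651 to 679 FPKM. EIF3-S6 (subunit E) was at 380 to 404, 366 to 382 and 311 to 331 FPKM. BGIBMGA004175 (subunit J) was at 154 to 164, 137 to 151 and 117 to 120 FPKM, and BGIBMGA010671 (subunit K) at 162 to 178, 152 to 182 and 135 to 142 FPKM, in the same order of strains. In all 4 the A798 libraries were lowest without overlap. How many of all features share this was not computed. By mean level, 35.6% of all features had the order A306, XH, A798 and 18.1% the order XH, A306, A798, both with A798 lowest. The log2 changes of these 4 subunits were 0.21 to 0.42 for A306 (adjusted p = 0.000176 to 0.00606) and 0.16 to 0.27 for XH (adjusted p = 0.00267 to 0.0162). As deposited, subunit J also passed in A306 against XH (0.16, adjusted p = 0.0257), a call that held in 10 of 20 alternatives: it was lost without A306 replicate 1 or 3 and without XH replicate 1 or 2 (adjusted p = 0.0704 to 0.0849), and turned to -0.04 under quantile normalization. None of these rises over A798 passed as higher under TMM scaling or median centring. With quantile normalization the only call left among these 4 genes was that of subunit J in XH, and with equal BGIBMGA sums the A306 calls of subunits H and K were lost (0.02 and 0.12, adjusted p = 0.549 and 0.153). The XH call of subunit H was lost in a fit with no variance trend (adjusted p = 0.0747). In A306 subunits E and H were called lower there under TMM scaling, at -0.10 and -0.18 (adjusted p = 0.0384 and 0.0016), and subunit H also under median centring, at -0.12 (adjusted p = 0.00952). Subunit H was called lower in A306 than in XH under TMM scaling (-0.11, adjusted p = 0.0229; across alternatives 0.0229 to 0.69).

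EIF3I (subunit I) was between 107 and 140 FPKM in A306, between 116 and 128 FPKM in XH and between 109 and 123 FPKM in A798, with overlap of all strains. It did not pass the test as deposited (0.05, 0.11 and -0.06 in the 3 comparisons), and under TMM scaling it was called lower in A306 than in A798 (-0.34, adjusted p = 0.0295; across alternatives 0.0295 to 0.906). EIF3G (subunit G), an RNA-binding subunit, was at 105 to 129, 68.5 to 101 and 84.7 to 101 FPKM, where XH replicate 1 stood apart at 68.5 FPKM, and it did not pass in any comparison. EIF3-S5 (subunit F, BGIBMGA008209) was listed at 1.89, 0 and 1.42 FPKM in A306, at 4.26, 10.1 and 4.44 in XH and at 1.27, 7.79 and 6.54 in A798. Its low values in A306 gave a call against XH only (-1.83, adjusted p = 0.0498), which held in 5 of 20 alternatives; without any A306 library, without A798 replicate 2 or 3 or without any XH library the adjusted p was 0.0517 to 0.148. Without A798 replicate 1 it was called lower in A306 than in A798 (-2.09, adjusted p = 0.0166), where it had not passed with all libraries (-1.48, adjusted p = 0.083). Subunit F was thus measured at a far lower level than its partners: the mean over 9 libraries was 4.19 FPKM, against 88.6 FPKM for subunit C and 724 FPKM for subunit H. The subunits D (EIF3-S7), L (BMO.1998) and A (BMO.3208) were at 0 in all, 8 and 8 of 9 libraries, with highest values of 0, 0.6 and 0.18 FPKM. Subunits of 1 complex listed at such unequal levels may include failed estimates.

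EIF-4A (BGIBMGA003186), the RNA helicase that unwinds the leader of messenger RNA, was at 1072, 1026 and 1009 FPKM in A306, at 981, 947 and 999 FPKM in XH and at 925, 929 and 880 FPKM in A798. The strains did not overlap, but the differences were small. The log2 change was 0.18 for A306 against A798 (adjusted p = 0.00377), below the typical gene, and turned to -0.21 under TMM scaling and -0.14 under median centring, where it was called lower (adjusted p = 0.000557 and 0.00252; across alternatives 0.000557 to 0.927). With equal BGIBMGA sums the A306 change was -0.00 and not called. In XH against A798 it was 0.10 and not called (adjusted p = 0.0691), and was called lower under the same scalings (-0.14 under each, adjusted p = 0.00516 and 0.00325; across alternatives 0.00325 to 0.433). BGIBMGA012675, described as initiation factor 4E-1, a protein that binds the cap of messenger RNA, did not pass the filter, with a highest value of 0.85 FPKM.

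EIF5A (BGIBMGA007469) carries the modified amino acid hypusine and, despite its name, is known to help the ribosome through stretches that are slow to elongate. It was the most abundant initiation factor gene, at 1705, 1772 and 1622 FPKM in A306, at 1523, 1441 and 1539 FPKM in XH and at 1490, 1569 and 1466 FPKM in A798. A306 lay above the other strains, which overlapped. The log2 change was 0.17 ± 0.0438 SE for A306 against A798 (adjusted p = 0.013), 0.18 for A306 against XH (adjusted p = 0.0138) and -0.01 for XH against A798 (95% interval -0.11 to 0.09, adjusted p = 0.931). Under TMM scaling EIF5A was called lower in A306 and in XH than in A798, at -0.22 and -0.25 (adjusted p = 0.00387 and 0.00281), and under median centring at -0.15 and -0.25 (adjusted p = 0.0124 and 0.00157). Over all alternatives these adjusted p ran from 0.00387 to 0.759 in A306 and from 0.00157 to 0.995 in XH. Against XH the call in A306 was lost under TMM scaling, at 0.03, under median centring, at 0.09, with equal BGIBMGA sums, at 0.06, and in a fit with no variance trend (adjusted p = 0.0782). The call against A798 was lost with equal BGIBMGA sums, at -0.02, and with no variance trend (adjusted p = 0.071). TEF2 FPKM as a percentage of EIF5A FPKM was 26.0, 18.4 and 22.8 in the A306 libraries, 54.8, 53.0 and 60.9 in XH and 93.1, 96.5 and 78.9 in A798, without overlap. That ratio was likewise chosen after its values were seen.

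BGIBMGA009830 encodes initiation factor 6, which binds the large ribosomal subunit and keeps it from joining the small subunit too early. It was at 53.1, 57.6 and 57.7 FPKM in A306, at 53.5, 48.2 and 60.8 FPKM in XH and at 42.4, 41.2 and 42.3 FPKM in A798. A798 was lowest without overlap. The log2 change was 0.41 in A306 (adjusted p = 0.00416) and 0.36 in XH (adjusted p = 0.012), and both calls were lost under TMM scaling (0.03 and 0.12), median centring (0.09 and 0.12) and quantile normalization (0.05 and 0.18). The A306 call was also lost with equal BGIBMGA sums (0.23, adjusted p = 0.0609).

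**Figure D2:**
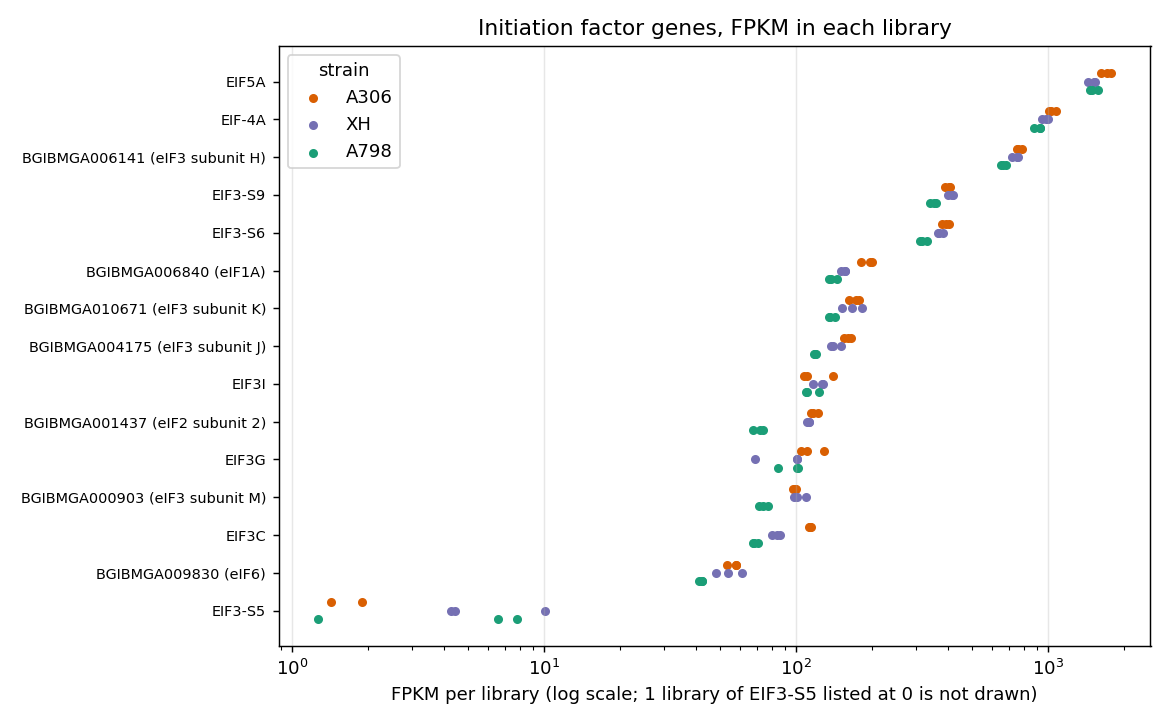
FPKM in each of 9 libraries (horizontal log axis) of the 15 initiation factor genes, ordered by mean level, with a point for each library except A306 replicate 2 of EIF3-S5, which is listed at 0. A798 lies lowest for most genes, with A306 and XH both well above it at BGIBMGA001437, and EIF3-S5 lies far below the other subunits of initiation factor 3.

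For A306 against A798 as deposited, 13 of the 20 members were called higher and 3 were called lower (limma on log2(FPKM + 1), adjusted p below 0.05), beside 37.9% of all features called higher and 9.6% called lower. The members called lower were TEF2, EF-1G and EF1BETA, and 12 of the 13 called higher were initiation factor genes. The median log2 change was 0.27 over the members and 0.31 over all features. Under TMM scaling, which sets the bulk of genes equal between libraries, 2 members were called higher and 9 lower, beside 15.7% and 17.9% of all features. The members still called higher were EIF3C and BGIBMGA001437, and TEF2, EF-1G and EF1BETA were among those called lower.

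In XH against A798, 11 members were called higher and 2 lower, TEF2 and EF-1G, beside 25.7% and 8.02% of all features. The median log2 change was 0.20 over the members and 0.19 over all features. Under TMM scaling 2 were called higher, BGIBMGA001437 and BGIBMGA000903, and 5 lower, beside 13.5% and 14.2% of all features. These 2 comparisons share the A798 libraries.

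In A306 against XH, 4 members were called higher (EIF3C, BGIBMGA006840, EIF5A and BGIBMGA004175) and 3 lower (TEF2, EF1BETA and EIF3-S5), beside 23.1% and 13.4% of all features. The other 13 did not pass the test. Under TMM scaling 1 was called higher, EIF3C, and 6 lower, beside 15.7% and 17.1% of all features. Over the 3 comparisons, 36 of 60 changes were called as deposited, beside the shares of all features given above for each comparison. Of the 36, 12 were called in the same direction under all 20 alternatives, and they belong to 6 genes: TEF2, EF-1G, EF1BETA, EIF3C, BGIBMGA001437 and BGIBMGA000903. The share of all features that keep their calls in this way was not computed.

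**Figure D3:**
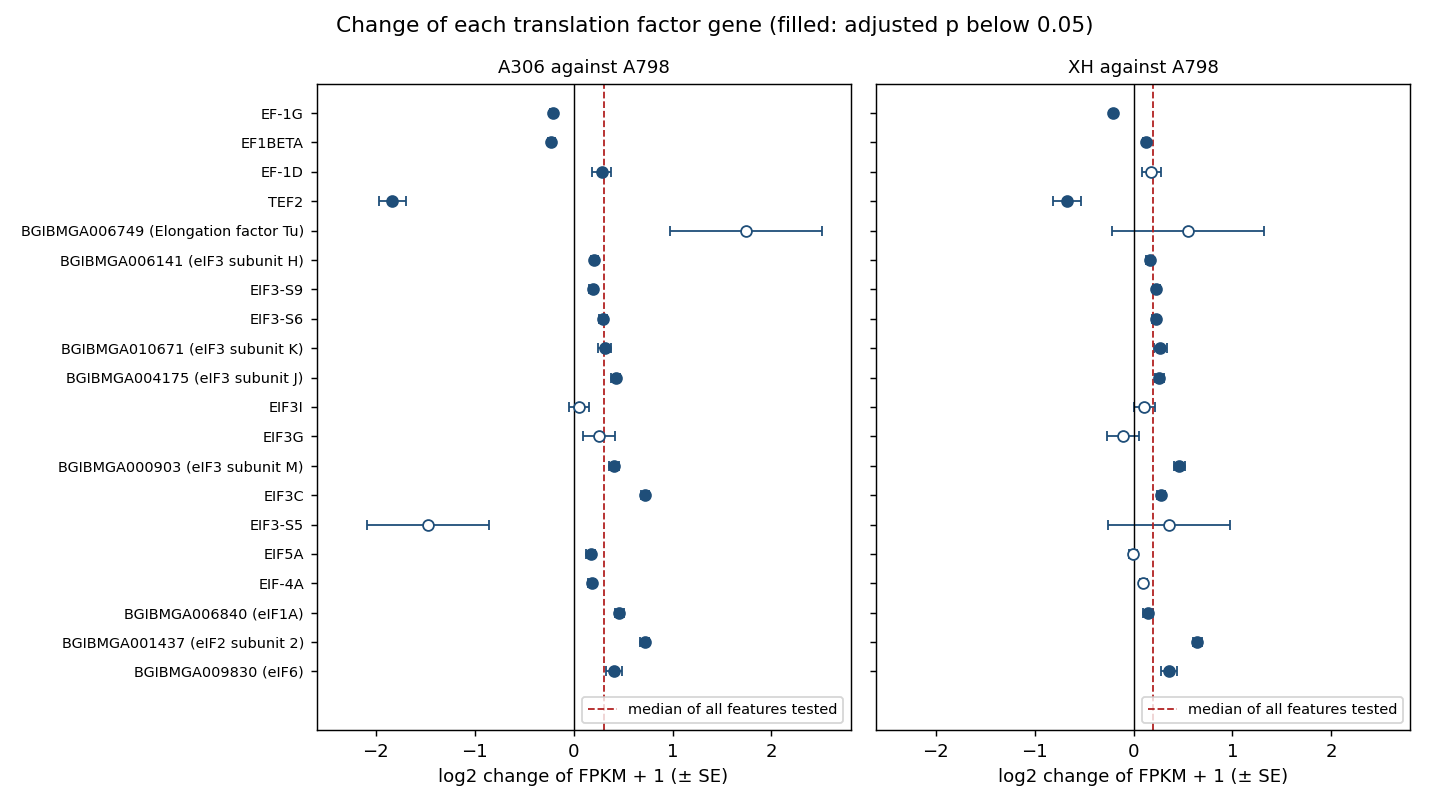
Log2 change of FPKM + 1 (horizontal axis, points with SE) of the 20 members in A306 and in XH against A798; filled points were called and the dashed line is the median of all features tested, 0.31 and 0.19. Most initiation factor genes lie near the dashed line, and TEF2 lies far to the left of it in both comparisons.

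Expressed as a share of summed FPKM of BGIBMGA genes, which is independent of ribosomal RNA, the elongation factor genes took 1.19%, 1.18% and 1.22% in the A306 libraries, 1.49%, 1.47% and 1.51% in XH and 1.75%, 1.82% and 1.72% in A798. The 3 strains did not overlap. The 15 initiation factor genes took 1.02 ± 0.00534%, 1.02 ± 0.0182% and 0.983 ± 0.0137% in A306, XH and A798. Initiation factors thus took a nearly constant share, with A798 slightly lower, while that of elongation factors was lowest in the strain with the lightest glands and highest in the heaviest. TEF2 alone made up 5.93% of the elongation factor sum in A306, 11.5% in XH and 16.3% in A798, and EF-1G 64.3%, 56.2% and 57.5%. These sums lack elongation factor 1-alpha, whose gene models were at or near 0.

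**Figure D4:**
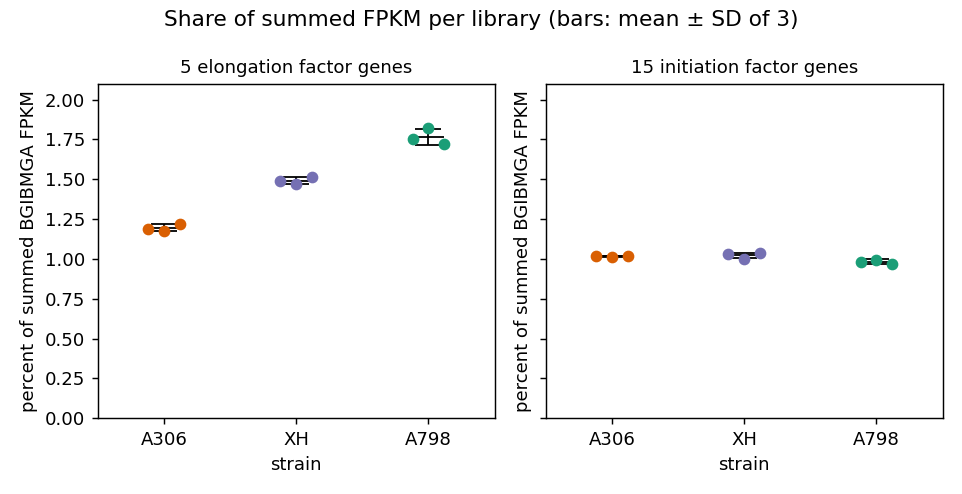
Percentage of summed BGIBMGA FPKM (vertical axis, from 0) taken by the 5 elongation factor genes (left) and the 15 initiation factor genes (right) in each library, by strain, with mean ± SD of 3. The elongation factor share rises from 1.20% in A306 through 1.49% in XH to 1.76% in A798, and the initiation factor share stays between 0.969% and 1.04%.

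Across the members the order of mean levels was most often A306 above XH above A798, in 11 of 20, an order that 35.6% of all features tested had. The reverse order, that of the gland weights, was seen in TEF2 and EF-1G, and in 7.72% of all features. In EF-1G the A306 and XH libraries overlapped, so there the order rests on A798 alone.

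**Figure D5:**
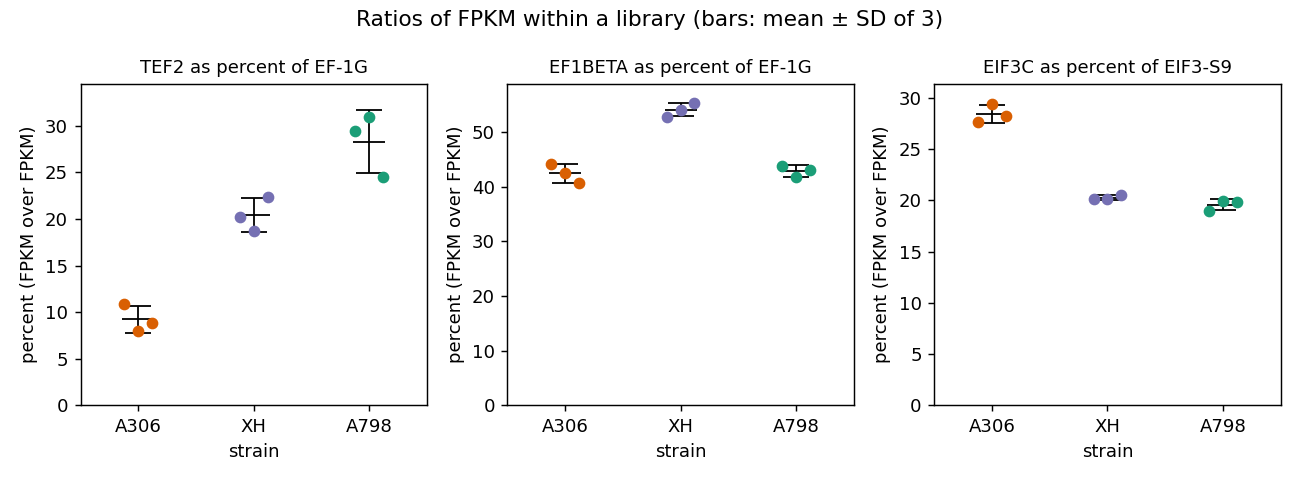
FPKM of TEF2 and of EF1BETA as a percentage of EF-1G, and of EIF3C as a percentage of EIF3-S9 (vertical axes, from 0), in each library by strain, with mean ± SD of 3. TEF2 per EF-1G rises from 9.22% in A306 to 28.3% in A798, EF1BETA per EF-1G is highest in XH at 54.1%, and EIF3C per EIF3-S9 is highest in A306 at 28.4%. The TEF2 and EIF3C ratios were chosen after their values were seen.

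Other genes of translation are given for comparison; of all features 37.9% were called higher and 9.6% lower for A306 against A798, and 25.7% and 8.02% in XH, with medians of 0.31 and 0.19. Under TMM scaling these shares were 15.7% and 17.9% in A306 and 13.5% and 14.2% in XH. Of 43 cytosolic ribosomal protein genes tested, A306 had 26 higher and 3 lower than A798, at a median log2 change of 0.17, and XH had 26 higher and 2 lower, at 0.19. Under TMM scaling 1 was higher and 28 were lower in A306, and 4 higher and 13 lower in XH, so the balance of their calls depended on the scaling. All 4 aminoacyl-tRNA synthetase genes, whose enzymes load transfer RNAs, rose in both strains, and 3 of 4 also did under TMM scaling; the median log2 changes were 0.72 and 0.69. The genes that handle nascent chains, subunits of the Sec61 channel into the endoplasmic reticulum and of the cytosolic chaperonin, were called higher in 5 of 6 in A306 (1 lower) and in 5 of 6 in XH, at medians of 0.66 and 0.29, and under TMM scaling 3 were higher and 1 lower in A306 and 2 higher in XH. Sec61 beta (BGIBMGA006209) was at 3415 ± 174 FPKM in A306, 2945 ± 60.0 in XH and 2401 ± 84.8 in A798. This order is opposite to that of TEF2, and 35.6% of all features had it. Of 4 mitochondrial ribosomal protein genes, 3 were higher in A306 and 1 in XH than in A798, and under TMM scaling 2 were higher in A306 and 1 was lower in XH. The single gene matched for termination and control of translation, a ribosomal protein S6 kinase gene (P90SRK), was listed at 0 throughout.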

How the data were processed

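The authors deposited FPKM to 2 decimals for 15745 features. Tools listed in the submitters' processing notes are StringTie 1.3.3b, fastp 0.19.5 and also DESeq2 1.24.0. Aligner, build and annotation: not given in the sources used here. A second table repeated values of 5 other genes and was not used, nor were 3 columns of strain means. Depth per library is unknown: of 342 features with low values, 18 had values within 1.3-fold of each other, too few to recover fragments. Features with at least 1 FPKM in 3 of 9 libraries (4636) were tested on log2(FPKM + 1) with limma 3.58.1 in R 4.3.3, strain means over all 9 libraries and a variance trend with mean level. The p-values were adjusted by Benjamini-Hochberg over all features tested, within each comparison. Called means an adjusted p below 0.05, two-sided. The pseudocount of 1 understates changes of low genes. Scaling alternatives, filters and leaving out each library were run. The fit was tested on simulated data without a shift common to a library, which cannot show how calls depend on scaling. Ratios of the other elongation factor 1 subunits to the most abundant subunit of that complex were planned. All other ratios, those of TEF2 included, were chosen after their values were seen. The members and lists were chosen with earlier results of these data known. All members were named; of other lists, at most 2 called genes of highest level. Of the identifiers, 0 matched the RefSeq table used, so positions and sequences were not used here. Reads shared by paralogs, such as the 2 elongation factor 1-alpha models, may be split between them in an unknown way. MRPL12 matched both ribosomal protein lists.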

Additional observations from a re-analysis of the deposited data

How the results depend on the processing

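The calls depended mainly on scaling. Over 20 alternatives, 12 of 36 called changes kept call and direction, all in the 6 genes named above. The matching share over all features was not computed. For A306 against A798 the members called higher numbered 2 under TMM scaling, 2 under median centring, 5 under quantile normalization and 6 with ENSRNA features left out and BGIBMGA sums made equal, against 13 as deposited, and those called lower 9 under TMM scaling and 7 under median centring, against 3. Of all features, 17.9% were called lower under TMM scaling and 17.99% under median centring, against 9.6%. Under all of these settings, in the order given, 15.7%, 16.4%, 17.2% and 25.5% of all features were called higher, against 37.9%. For XH against A798 the members called higher numbered 2, 2 and 4 under the first 3 of these settings, against 11, and those called lower 5 and 5 under the first 2, against 2. Of all features, 13.5%, 12.1% and 14.0% were called higher there, against 25.7%, and 14.2% and 15.3% lower, against 8.02%. For A306 against XH the members called higher numbered 1 under TMM scaling and 2 each under median centring, equal BGIBMGA sums and a fit with no variance trend, against 4, and those called lower 6, 5 and 6 under the first 3, against 3. Of all features, 15.7%, 18.6%, 17.2% and 22.3% were called higher there, against 23.1%. Under the first 3, 17.1%, 15.8% and 16.2% were called lower, against 13.4%. Leaving out 1 library at a time gave 12 to 14 members higher and 3 to 4 lower, 9 to 11 higher and 2 lower, and 3 to 4 higher and 2 to 3 lower, in the same order of comparisons. Of all features, 32.1% to 37.1%, 19.8% to 24.6% and 18.9% to 23.2% were then called higher. Those called lower were 8.63% to 9.38%, 6.49% to 7.77% and 11.6% to 13.4%. Log2 changes that were called, as deposited or under the alternative, and turned negative for A306 against A798 were, under TMM scaling, EIF-4A -0.2085, EF-1D -0.1069, EIF3-S6 -0.0959, BGIBMGA006141 -0.1835, EIF3-S9 -0.2014, EIF5A -0.2212, EIF3I -0.3385, BGIBMGA010671 -0.0793; under median centring, EIF-4A -0.1407, EF-1D -0.0414, EIF3-S6 -0.0287, BGIBMGA006141 -0.1158, EIF3-S9 -0.1342, EIF5A -0.1532, BGIBMGA010671 -0.0136; under quantile normalization, EF-1D -0.0298, EIF3-S6 -0.0081, EIF3-S9 -0.0853, BGIBMGA010671 -0.0355; and with equal BGIBMGA sums, EIF-4A -0.0036, EIF5A -0.0163. For XH against A798 they were, under TMM scaling, EIF-4A -0.1413, EIF3-S6 -0.0181, BGIBMGA006141 -0.0771, BGIBMGA006840 -0.0940, EIF3-S9 -0.0086, EF1BETA -0.1137; under median centring, EIF-4A -0.1402, EIF3-S6 -0.0174, BGIBMGA006141 -0.0761, BGIBMGA006840 -0.0942, EIF3-S9 -0.0079, EF1BETA -0.1124; and under quantile normalization, BGIBMGA006840 -0.0142. For A306 against XH they were BGIBMGA006141 -0.1064 under TMM scaling and BGIBMGA004175 -0.0433 under quantile normalization. The cause was not tested beyond the scaling itself. Deviations of libraries with the same replicate number were weakly correlated (0.000389 to 0.0626 over 9 pairs). Such correlations cannot show whether the numbers pair the libraries. With the replicate number as a block, 13 and 3, 9 and 2, and 4 and 2 members were called higher and lower. The shares of all features were 35.9% and 8.93%, 22.5% and 7.46%, and 21.4% and 12.9%. The calls lost were BGIBMGA006840 and EF1BETA in XH against A798 (adjusted p = 0.0557 and 0.0526) and EIF3-S5 in A306 against XH (adjusted p = 0.086). Depth is unknown, so no counting error can be given for genes near 0 such as EIF3-S5 and BGIBMGA006749.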
